A study of Bos taurus with 48 samples.

Results

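The genes described here are the 10 that carry fatty acid and triglyceride synthesis in liver, namely ACLY, ACACA, ACACB, FASN, ELOVL6, SCD, GPAM, DGAT1, DGAT2 and SREBF1. They were found by name in the annotated table of the array, where 47 of 43803 spots carried 1 of these names, and they are 10 of the 15000 genes that were measured on at least 24 of the 48 arrays and could be tested. Liver biopsies had been taken from 32 grazing dairy cows at −7, 7 and 28 d from calving. The 4 treatments, each with 8 cows, were B5F125, B5F75, B4F125 and B4F75. B5 and B4 stand for a body condition score (BCS) of 5 or 4 before calving, on a scale where a higher score means a fatter cow, and F125 and F75 for pasture that supplied 125 or 75 % of the estimated energy requirement in the 3 weeks before calving. The feeding levels ended at calving, so the samples of 7 and 28 d were taken after the treatment. Each value below is relative to another treatment or day. The labels name American Holstein tissue, whereas the methods of the study describe a herd of mixed age and breed in which both differed between the treatments. Neither is given per cow, so they are in no fit and their part in the results was not tested.

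Each array held the RNA of 2 cows, 1 in Cy5 and 1 in Cy3, and gives 1 log2 ratio per spot. The 32 cows formed 16 pairs, each of which shared 3 arrays. Of these, 12 set treatments against each other on 1 day (36 arrays), and 4, 1 per treatment, set days against each other within a treatment (12 arrays). A ratio within an array allows no comparison of the level of 1 gene with that of another, and in bulk liver fewer cells of a type and less RNA per cell cannot be told apart.

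No source used here states which dye is the numerator. Ratios were taken as Cy5 over Cy3. This was held likely only because the signs of the feeding comparisons in the study's supplementary tables appeared to run that way. No count of the genes that share a sign is given here, so this order is an assumption. Each of the 48 arrays correlated positively over the genes with the mean of the others (r 0.07 to 0.33), which bears on a shared order of the dyes and not on which dye is the numerator. For the comparisons of days this direction is not settled. On the 12 arrays labelled with different days, HP (haptoglobin) differed by −3.58 at 7 vs −7 d (SE 0.87), IGFBP2 by −1.21 (SE 0.36) and IGF1 by +0.91 (SE 0.26), whereas in dairy cow liver haptoglobin and IGFBP2 are known to be higher and IGF1 lower soon after calving. These genes were chosen after their values had been seen. Differences between days are therefore given as the labels have them, and each would change its sign if those labels or dyes ran the other way. If Cy3 were the numerator on all 48 arrays, each feeding and BCS difference would change its sign as well. Called feeding and BCS differences of members and other lipid genes are given with and without those 12 arrays, except where stated. Where a result ranks groups of different days or changed with those labels, the value with the 2 channels of these 12 arrays exchanged (turned) is given too.

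As background, fatty acids are built from citrate carbon. ACLY (ATP citrate lyase) makes acetyl-CoA in the cytosol, ACACA and ACACB (acetyl-CoA carboxylases) make malonyl-CoA, and FASN (fatty acid synthase) joins the units to palmitate, which ELOVL6 lengthens to stearate and SCD desaturates to oleate. The malonyl-CoA of ACACB, which sits at the mitochondrial membrane, is better known as the brake on fatty acid entry into mitochondria. GPAM (mitochondrial glycerol-3-phosphate acyltransferase) starts glycerolipid synthesis, DGAT1 and DGAT2 (diacylglycerol acyltransferases) finish the triglyceride, and SREBF1 is the transcription factor that insulin uses to switch on the enzymes of the pathway. In ruminants adipose tissue makes most of the new fatty acids and the liver little, while the liver esterifies the fatty acids that reach it from adipose tissue around calving.

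The probes of these genes differed widely in signal. Intensities were not used here, but 94.75% of the deposited values can be written as the ratio of 2 whole numbers (within 6e-10 on the log2 scale), and the median whole number of a probe's ratios is a lower bound of its signal in scanner units. Taking a median of at least 50 as bright, 20 of the 47 member probes were bright, against 39.13% of all spots. SCD had 6 bright probes of 7, DGAT2 3 of 3, ELOVL6 3 of 5, FASN 2 of 5, ACLY 2 of 4, GPAM 2 of 3, SREBF1 1 of 2 and DGAT1 1 of 3. ACACA had none of 3 and ACACB none of 12. Bright probes of a gene varied together to different degrees on the 48 arrays. The pair of FASN correlated at 0.985, that of ACLY at 0.978, and the 15 pairs of SCD at 0.889 to 0.991. The 3 pairs of ELOVL6 correlated at 0.761 to 0.911, the pair of GPAM at 0.763 and the 3 pairs of DGAT2 at 0.519 to 0.838. The 60 of the 66 pairs of ACACB probes that shared enough arrays had a median correlation of 0.02, and the 3 pairs of ACACA probes one of 0.19, so the averages of ACACA and ACACB rest on dim probes that did not vary together. All 16 hepatocyte markers found on the array (albumin, transferrin, fibrinogen and others) had a bright probe. Of 10 adipocyte markers, ADIPOQ, LEP, PLIN1, FABP4, LIPE, LPL and PPARG had none.

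The members also differed in how much their ratios varied between arrays, where treatment, day, dye and probe noise add to differences between cows. On the 48 arrays the log2 ratio of SCD lay between −2.89 and 4.31, with an SD of 1.45 that exceeded that of 97.3% of the genes (median 0.59). FASN and DGAT1 followed with an SD of 0.84 each, and DGAT2 varied least, with an SD of 0.44 at the 27.3rd percentile. Among the 12 groups, as labelled, SCD spanned 2.23 on the log2 scale, with B5F125 at −7 d highest at 0.86 (SE 0.48) and B4F125 at 28 d lowest at −1.36 (SE 0.48), both relative to the mean of the groups. The same groups stood at the ends for FASN, at 0.64 and −0.68 (SE 0.27 each). In the order of the 12 groups no 2 neighbours lay more than 1.84 SE apart, except that B4F125 at 28 d lay 2.25 SE below the next group for SCD. The SE here is that of the level of a single group and not of the difference between 2 groups, so these steps are no test. This order across days depends on the labels of the arrays between days. With those arrays turned, SCD spanned 1.63, with B5F75 at 28 d highest at 0.93 and B4F125 at 28 d lowest at −0.70 (SE 0.48 each). FASN then had B4F75 at 28 d highest at 0.48 and B4F125 at 28 d lowest at −0.62 (SE 0.26 each), and no 2 neighbours of these genes lay more than 0.732 SE apart.

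**Figure D1:**
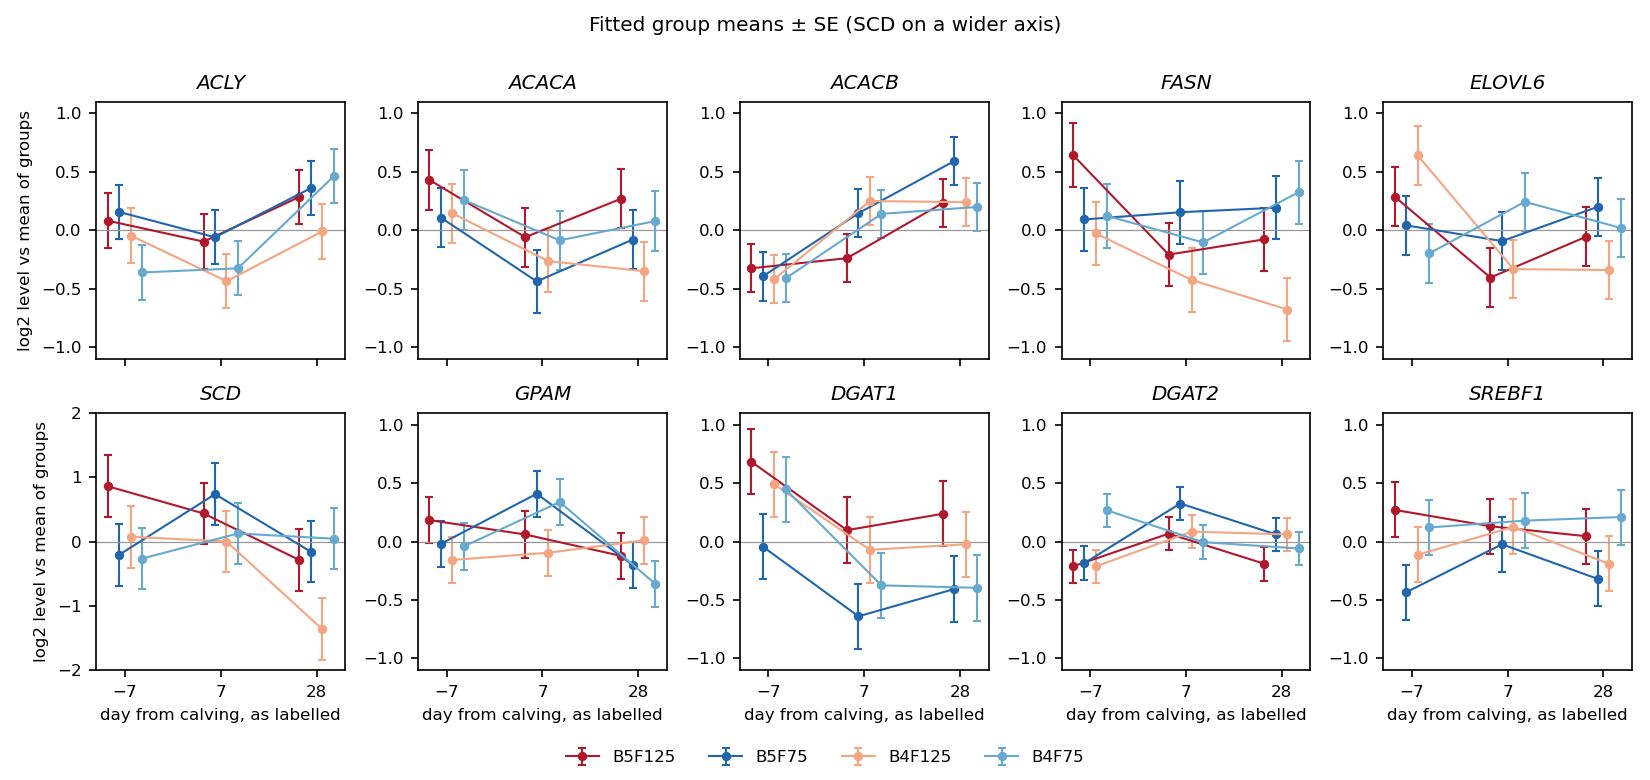
Fitted log2 level of each gene (y axis, relative to the mean of the 12 groups, points with SE) on the 3 labelled days (x axis) in B5F125, B5F75, B4F125 and B4F75 cows, 8 per group; SCD has a wider axis. As labelled, FASN and SCD of B4F125 cows at 28 d lie lowest, at −0.68 and −1.36, and the ELOVL6 level of B4F125 cows is highest at −7 d, at 0.64; with the arrays between days turned these levels are −0.62, −0.70 and 0.20.

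Over the 27 comparisons of days, feeding, BCS and their interactions, 5 of the 270 tests of members were called, that is, had an unadjusted p from limma of 0.01 or less and a fold change (FC) of 1.5 or more, as the study required. This is 1.85%, against 0.778% of the tests of all genes. At an unadjusted p of at most 0.05 there were 25 tests of members (9.26%, against 4.71% of all). After Benjamini-Hochberg adjustment over all genes in limma, 0 of the 270 tests of members passed 0.05 and 17 tests of all genes did, so each call below stands at the unadjusted threshold only. In the 16 comparisons of feeding and its interactions without a called member, the share of all genes called was 0.547%, 0.741%, 0.427% and 0.434% for F125 vs F75 at −7, 7 and 28 d and over the days. It was 0.467%, 1.01% and 0.467% within BCS4 at −7 d, at 7 d and over the days, and 0.674%, 1.07% and 0.387% within BCS5 at −7, 7 and 28 d. It was 0.427%, 0.988%, 0.647% and 0.501% for the interaction at −7, 7 and 28 d and over the days. For the change of the feeding response of BCS5 cows it was 1.23% to 7 d and 0.527% to 28 d.

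Among feeding differences within a day, only that of FASN in BCS4 cows at 28 d was called. FASN, the enzyme that makes palmitate, averaged −0.68 (SE 0.27) in B4F125 cows and 0.33 (SE 0.27) in B4F75 cows, relative to the mean of the groups (8 cows each). On the arrays that held 1 cow of each, the ratio of F125 over F75 was −1.33 in pair 6 and −1.03 in pair 7. Both arrays showed FASN lower in the B4F125 cow. The fitted log2 difference, which also draws on arrays shared with other groups, was −1.005 (SE 0.35, 95% interval −1.71 to −0.30), a 2.01-fold lower level (adjusted p = 0.913 from limma), where 0.867% of all genes were called. The 2 bright probes alone gave −1.53 (SE 0.49, adjusted p = 0.98), and the dim probes −0.21 (SE 0.26), −0.70 (SE 0.46) and −1.02 (SE 0.57). Without the 12 arrays between days the difference was −1.27 (SE 0.35) and stayed called, and with them turned it was −1.11 (SE 0.34). Leaving out pair 2, 4, 6, 7, 9 or 11 ended the call, with values of −0.80 to −0.99.

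SCD, the desaturase that makes oleate, had a difference of the same sign that was not called. The ratio of F125 over F75 was −0.56 in pair 6 and −1.86 in pair 7, again both below 0. The fitted difference at 28 d was −1.41 (SE 0.62, adjusted p = 0.999), with a 95% interval of −2.66 to −0.16, and its 7 probes lay between −1.34 and −1.51. With a pair left out it lay between −1.85 without pair 8, where it was called, and −0.98 without pair 9, and it was called only without pair 8. The residual SD of SCD was 1.39, against 0.77 for FASN.

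Of the other members, ACLY, ACACA, SREBF1 and ELOVL6 had values of −0.36 to −0.47 in this comparison, and ACACB, DGAT2, DGAT1 and GPAM values of 0.04 to 0.37, with intervals that all held 0. The median of the 10 members was −0.38, against −0.01 over all genes. PGD, the pentose phosphate enzyme that supplies NADPH, was called lower in B4F125 cows (−0.74, SE 0.22, adjusted p = 0.891, and −0.82 without the 12 arrays, also called), as 1 of the 6 measured genes that supply acetyl-CoA and NADPH. Of the marker lists, 15 of 16 hepatocyte markers lay above 0 (median 0.22), against 2 of 10 macrophage markers (median −0.12), 3 of 10 adipocyte markers (median −0.21, range −1.14 to 0.81), 2 of 8 neutrophil markers (median −0.13) and 1 of 5 erythroid markers (median −0.16). None of these markers was called in this comparison. Of all genes 48.55% lay above 0, and the counts of the other marker lists are not given. The part of other cell types in the differences was not tested further.

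In BCS5 cows at 28 d the difference of FASN was −0.27 (SE 0.35, 95% interval −0.97 to 0.43) and that of SCD −0.13 (SE 0.62, −1.38 to 1.12). The pairs that held both feeding levels had FASN ratios of −0.59 and −0.03, and SCD ratios of −1.76 and 0.81. The test of the difference between the BCS classes gave 0.73 for FASN (SE 0.49, −0.26 to 1.73) and 1.28 for SCD (SE 0.87, −0.48 to 3.04), so a response particular to BCS4 cows was not shown. Over both classes, FASN was −0.64 in F125 vs F75 cows at 28 d (SE 0.25, −1.13 to −0.14) and was not called; with the arrays between days turned it was −0.72 (SE 0.24) and was called.

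Before calving the sign was different for some members only. In BCS4 cows at −7 d SCD was 0.34 (SE 0.62) and ACLY 0.32 (SE 0.30). FASN was −0.15 (SE 0.35), although the arrays of pairs 6 and 7 gave 0.55 and 0.09. ACACA (−0.11) and SREBF1 (−0.23) also lay below 0, as at 28 d. ELOVL6, the elongase that turns palmitate into stearate, had F125 over F75 ratios of 1.31 and 1.61 in the BCS4 pairs at −7 d. At 7 d the same pairs gave 0.13 and −0.92, and at 28 d 0.21 and −1.41. In both pairs the array of −7 d was the highest, and in pair 7 the ratio passed to the other side of 0. The fitted difference in BCS4 cows was 0.84 at −7 d (SE 0.32, 95% interval 0.19 to 1.49), −0.58 at 7 d (SE 0.32, −1.23 to 0.08) and −0.36 at 28 d (SE 0.32, −1.01 to 0.29). The value at −7 d missed the threshold with all 5 probes averaged and passed it with the 3 bright probes (0.94, SE 0.29, adjusted p = 0.956, and 1.08, SE 0.32, without the 12 arrays, also called), where 0.456% of genes with bright probes were called.

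The change of this feeding response between days was called at both later days. From −7 to 7 d it changed by −1.42 (SE 0.39, adjusted p = 0.626), where 0.914% of all genes were called, and all 5 ELOVL6 probes passed the threshold on their own, at −1.15 to −2.05. From −7 to 28 d it changed by −1.20 (SE 0.39, adjusted p = 0.722), where 1.11% of all genes were called, and 4 of the 5 probes passed. Without the 12 arrays between days the changes were −1.57 (SE 0.49) and −1.53 (SE 0.49). With those arrays turned they were −0.86 and −1.03 (SE 0.44 each) and neither was called. The change to 7 d was called without any 1 of the 16 pairs. The change to 28 d was lost without pair 7, with −0.80 (SE 0.42). Of the marker lists, S100A9 of 8 neutrophil markers (−1.82, SE 0.48) and NEB of 6 muscle markers (−2.55, SE 0.73) were called in the change to 7 d, and HBM of 5 erythroid markers (−1.28, SE 0.46) and NEB again (−2.69, SE 0.74) in the change to 28 d. All of these have dim probes only, none of the 10 adipocyte or 16 hepatocyte markers was called in either change, and the part of the markers in the values of ELOVL6 was not tested.

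In BCS5 cows ELOVL6 had ratios of 0.39 and 0.31 at −7 d, 0.15 and 0.46 at 7 d, and −0.55 and −0.14 at 28 d. The changes of the response from −7 d were −0.56 to 7 d and −0.50 to 28 d and neither was called. Averaged over both BCS classes, ELOVL6 was 0.54 higher in F125 cows at −7 d (SE 0.23, 95% interval 0.08 to 1.00), which was called with its bright probes (0.61, SE 0.21, where 0.408% of such genes were called) and also without the 12 arrays (0.67, SE 0.23). In that comparison HBB (1.71, SE 0.41) and HBM (0.77, SE 0.26) of 5 erythroid markers and NEB (1.68, SE 0.45) of 6 muscle markers were called too, all on dim probes, and their part was not tested.

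Further enzymes had values of the same sign without a call on the probe averages. In BCS4 cows the change of the feeding response from −7 to 28 d was −1.75 for SCD (SE 0.76, 95% interval −3.28 to −0.22), −0.86 for FASN (SE 0.43, −1.72 to 0.00) and −0.79 for ACLY (SE 0.37, −1.53 to −0.05). With the arrays between days turned, FASN (−1.16, SE 0.41) and ACLY (−1.05, SE 0.35) were called. The changes to 7 d were smaller, at −0.46, −0.17 and −0.43 with intervals that held 0. BCS5 cows had changes of FASN of −0.91 to 7 d (SE 0.43, −1.78 to −0.05) and −0.82 to 28 d (SE 0.43, −1.68 to 0.04). Those of SCD were −1.37 to 7 d (SE 0.76, −2.90 to 0.16) and −1.20 to 28 d (SE 0.76, −2.72 to 0.33), while ACLY stood at 0.04 and −0.0007. In the change to 28 d of BCS5 cows 9 of the 10 members lay below 0, with a median of −0.28 against −0.01 over all genes. Of all genes 48.74% lay above 0 there. With its 2 bright probes ACLY passed the threshold in BCS4 cows (−1.19, SE 0.44, where 1.12% of such genes were called, and −2.03, SE 0.45, without the 12 arrays). The ACLY ratios of F125 over F75 were 0.87 and 0.99 at −7 d, 0.42 and −1.36 at 7 d, and 0.06 and −1.02 at 28 d, so that pair 7 again lay on opposite sides of 0 before and after calving. DGAT2, which esterifies fatty acids into triglyceride, had the opposite sign, with −0.48 at −7 d (SE 0.18, −0.85 to −0.11) and changes of 0.57 to 7 d (SE 0.23) and 0.60 to 28 d (SE 0.23). All 3 of its probes are bright, and in the fit of bright probes, where the errors are pooled over 8332 genes, the change to 28 d was called (0.60, SE 0.21), and was not called without the 12 arrays (0.44, SE 0.20).

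**Figure D2:**
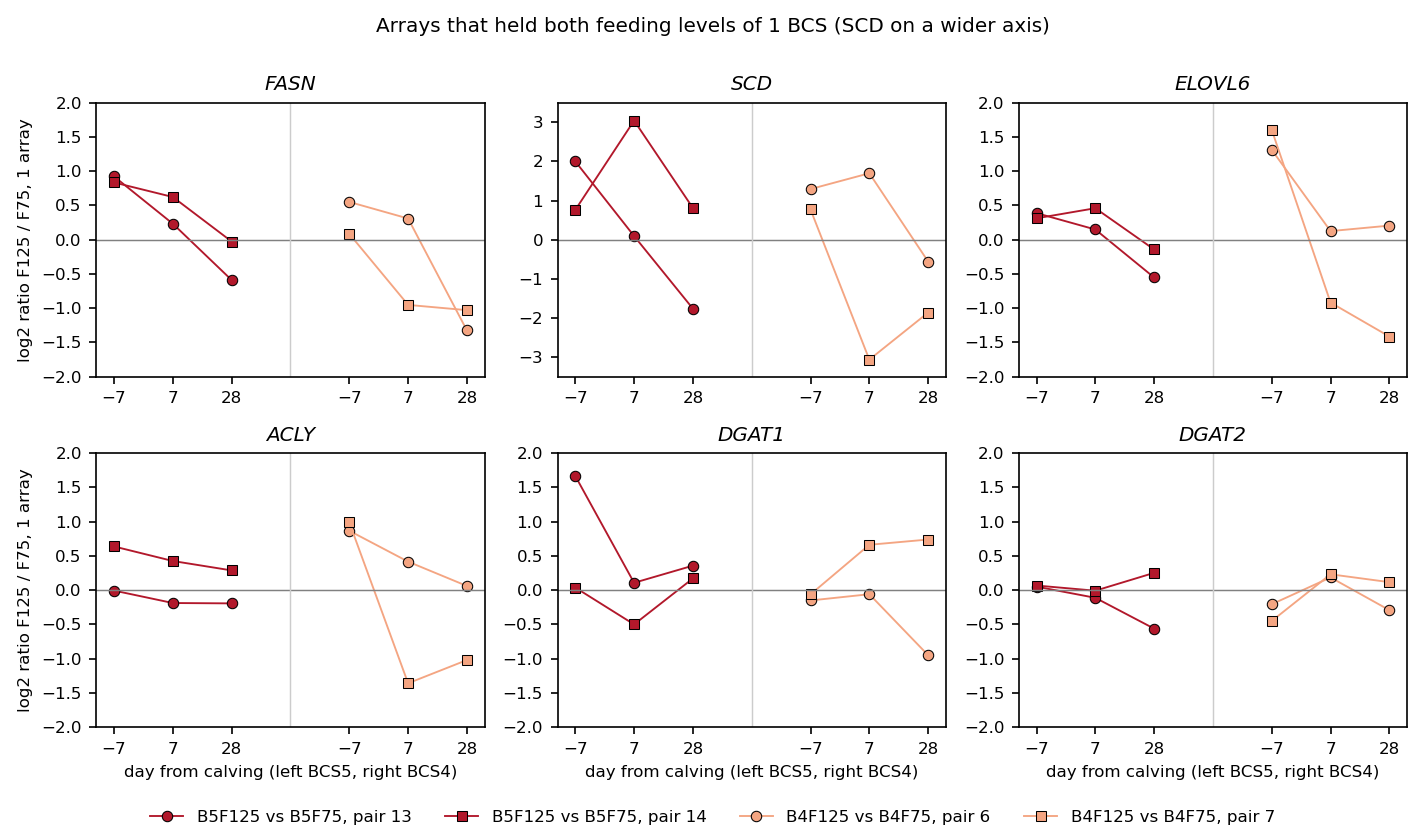
Log2 ratio of F125 over F75 (y axis) on each array that held both feeding levels of 1 BCS class, by day (x axis), with BCS5 pairs 13 and 14 on the left and BCS4 pairs 6 and 7 on the right of each panel. ELOVL6 of the BCS4 pairs stands at 1.31 and 1.61 at −7 d and lies between −1.41 and 0.21 later, and FASN lies below 0 in all 4 pairs at 28 d.

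In BCS5 cows at −7 d no member was called, where 0.674% of all genes were. The values of FASN (0.55, SE 0.35), SCD (1.07, SE 0.62), SREBF1 (0.70, SE 0.30) and DGAT1 (0.73, SE 0.36) were above 0, and the median of the members was 0.28. The FASN ratios of pairs 13 and 14 were 0.92 and 0.84, and those of SREBF1 0.82 and 1.27. For SREBF1, whose product activates the genes of the pathway, the BCS4 pairs gave −0.23 and −0.41 on the same day. At −7 d the interaction for SREBF1 was 0.94 (SE 0.43, 95% interval 0.07 to 1.80) and was not called. With the arrays between days turned, SREBF1 in BCS5 cows was 0.77 (SE 0.27) and was called.

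The regulators of the pathway included 2 called genes in that comparison. THRSP, a lipogenic protein of the nucleus, was 2.53 higher in B5F125 than in B5F75 cows (SE 0.86, adjusted p = 1.0), and INSIG1, which holds back the SREBP precursors in the endoplasmic reticulum, 1.35 higher (SE 0.39, adjusted p = 0.818). Without the 12 arrays both stayed called, at 3.01 and 1.33. They were 2 of the 20 regulators measured, and 0 of the 20 were called lower. All 16 hepatocyte markers lay above 0 in this comparison, none called, with a median of 0.25, and all 6 cholangiocyte markers below 0, with a median of −0.35. Of all genes 51.28% lay above 0, and such counts of the other marker lists are not given. HBB, a haemoglobin chain measured by dim probes, was called higher (1.95, SE 0.58), as 1 of 5 erythroid markers. The part of these markers in the values of the members was not tested.

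DGAT1, the enzyme that joins the last fatty acid to diacylglycerol, was called in BCS5 cows with the days averaged, where 0.461% of all genes were called. Its level relative to the mean of the groups, as labelled, was 0.68, 0.10 and 0.24 at −7, 7 and 28 d in B5F125 cows, and −0.04, −0.64 and −0.41 in B5F75 cows (SE 0.28 each). The fed-more group lay above the other on each day, but single arrays did not all do so. The ratios were 1.67, 0.11 and 0.36 in pair 13 and 0.04, −0.50 and 0.17 in pair 14 on the 3 days. The fitted difference was 0.70 (SE 0.25, FC 1.63, adjusted p = 1.0), and the bright probe alone gave 0.59 (SE 0.22). The bright probe was called too, where 0.3% of genes with bright probes were. It stayed called without the 12 arrays between days (0.59, SE 0.21). With the probes averaged the call was lost without those arrays. It was also lost without each of pairs 2, 3, 4, 7, 10, 11, 12, 13 and 15 in turn. The values were then 0.58 to 0.70. With those 12 arrays turned the averaged difference stayed called at 0.70. DGAT1 was then also called in BCS5 cows at 7 d (0.94, SE 0.35) and over both BCS classes at −7 d (0.71, SE 0.25). In the comparison of BCS5 cows over the days 10 of 10 macrophage markers lay above 0 (0.07 to 0.59), none called. Of 6 cholangiocyte markers 1 did (median −0.33), none called, and the part of these markers was not tested. Of all genes 52.5% lay above 0, and the counts of the other marker lists are not given.

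In BCS4 cows the feeding difference of DGAT1 over the days was 0.24, and the test of the difference between the BCS classes gave 0.46. Neither was called, so a response particular to BCS5 cows was not shown. Across both BCS classes DGAT1 was 0.47 higher in F125 than in F75 cows (SE 0.18, 95% interval 0.11 to 0.83). Of the 8 cow pairs in which an F125 cow met an F75 cow, 6 lay above 0, with a lowest value of −0.39, a median of 0.63 and a highest of 0.90. A 2-sided exact sign-flip permutation test over these pairs gave p = 0.0391, where the smallest p the 8 pairs allow is 0.00781. It was the smallest of the 20 such tests (10 members, feeding and BCS), and 1 of 20 is what an unadjusted 0.05 gives by chance. The other 9 members had exact p of 0.10 to 0.82 for feeding.

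BCS gave no called member. In BCS5 vs BCS4 cows 0 of 10 members were called at −7 d, 7 d, 28 d or with the days averaged, where 0.314%, 0.894%, 0.273% and 0.187% of all genes were. At an unadjusted p of 0.05 in limma the count of members was also 0 of these 40 tests. The largest difference over the days was that of SCD, at 0.46 (SE 0.31, 95% interval −0.16 to 1.08). In the 8 pairs in which a BCS5 cow met a BCS4 cow, SCD lay between −1.03 and 2.00 with a median of 0.65 and was above 0 in 6 (exact permutation p = 0.203). FASN lay between −0.69 and 1.01 and was above 0 in 5 (exact permutation p = 0.25), with an interval of −0.09 to 0.61 for the fitted difference. DGAT2 had the narrowest interval, −0.23 to 0.14, so a difference of 1.5-fold between the BCS classes lies outside it. Pairs 2, 3, 11 and 12 differed in feeding too and enter both comparisons.

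**Figure D3:**
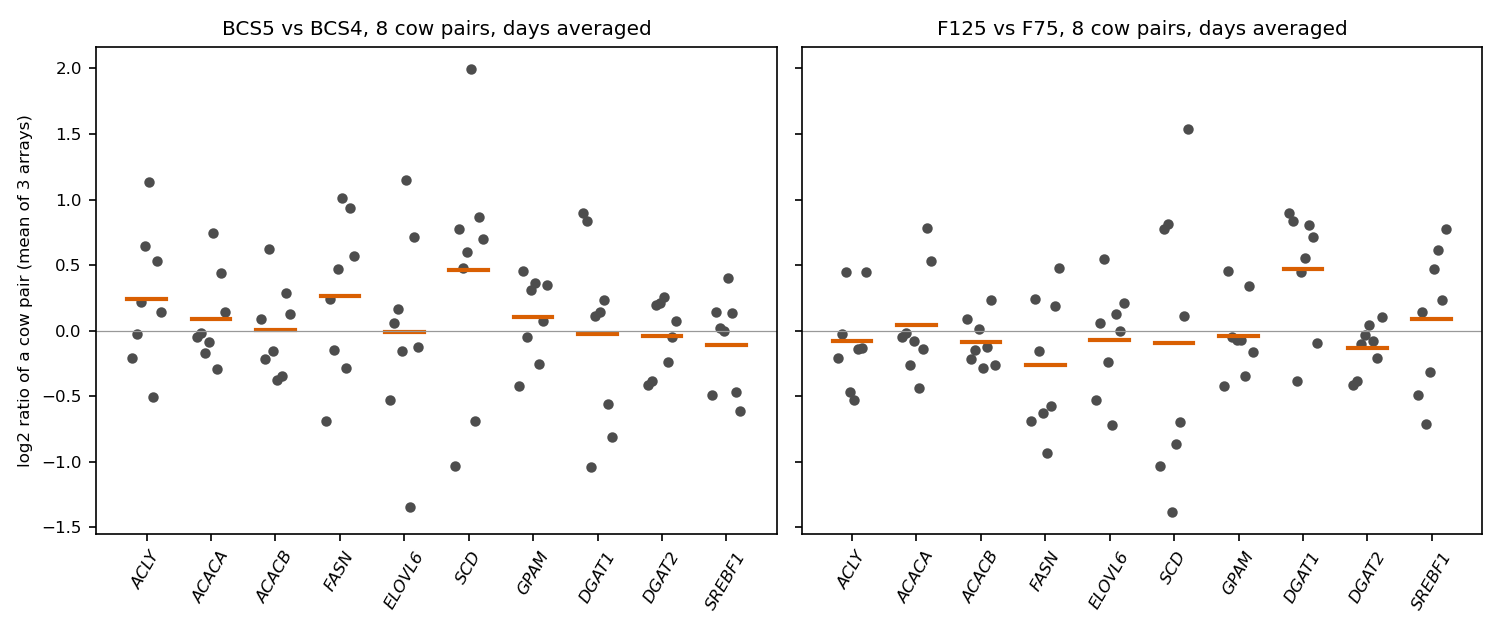
Log2 ratio of each of the 8 cow pairs (points, mean of 3 arrays) and their mean (bars) for each gene, BCS5 over BCS4 on the left and F125 over F75 on the right. DGAT1 lies above 0 in 6 of 8 feeding pairs with a mean of 0.47, and SCD has the widest spread in both panels.

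Between days only ACACB was called, in the direction that the labels give. The averages of ACACB lay between −0.42 and −0.33 in the 4 treatments at −7 d, between −0.24 and 0.25 at 7 d and between 0.20 and 0.59 at 28 d (SE 0.21 each). The share of all genes whose group levels of −7 and 28 d separate in this way was not counted, so no result is drawn from these ranges. In the 4 cow pairs that compared days each array held 2 different cows, so the mean of a pair's 3 arrays was removed. So treated, 28 vs −7 d gave 0.81 in B4F75, −0.07 in B4F125, 1.16 in B5F75 and 0.92 in B5F125 cows. Of these, 3 of 4 lay clearly above 0. Before that removal the B4F125 array had 0.56 with −7 d in Cy5 (gene mean removed), so ACACB was lower in the cow labelled 28 d. Such a ratio holds the difference between the 2 cows as well as that between the days. The fitted difference was 0.70 (SE 0.22, FC 1.63, adjusted p = 0.211), where 2.08% of all genes were called, the highest share of the 27 comparisons. It was lost without pair 1, 15 or 16, at 0.54 to 0.63.

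Of the 5 probes tested 1 was called. Of the 12 ACACB probes 5 were on enough arrays to be tested, and 4 of these lay above 0. Probe A_73_P102301, measured on 40 arrays with a median whole number of 3.6, was called at 1.69 (SE 0.42). Without this probe the average of ACACB gave 0.57 (SE 0.20), which is below the FC of 1.5, so the call was lost although most of the difference remained. Probe A_73_112803, measured on all 48 arrays with a median of 45.6, gave 0.04 (SE 0.14), with the smallest error of the 5. The other 3, with medians of 2.24 to 3.67, gave −0.08 (SE 0.74), 0.47 (SE 0.71) and 0.84 (SE 0.90). The 7 untested probes were measured on 17 to 23 arrays. Among the 40 member probes tested in this comparison 1 was called, against 2.73% of all probes.

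**Figure D4:**
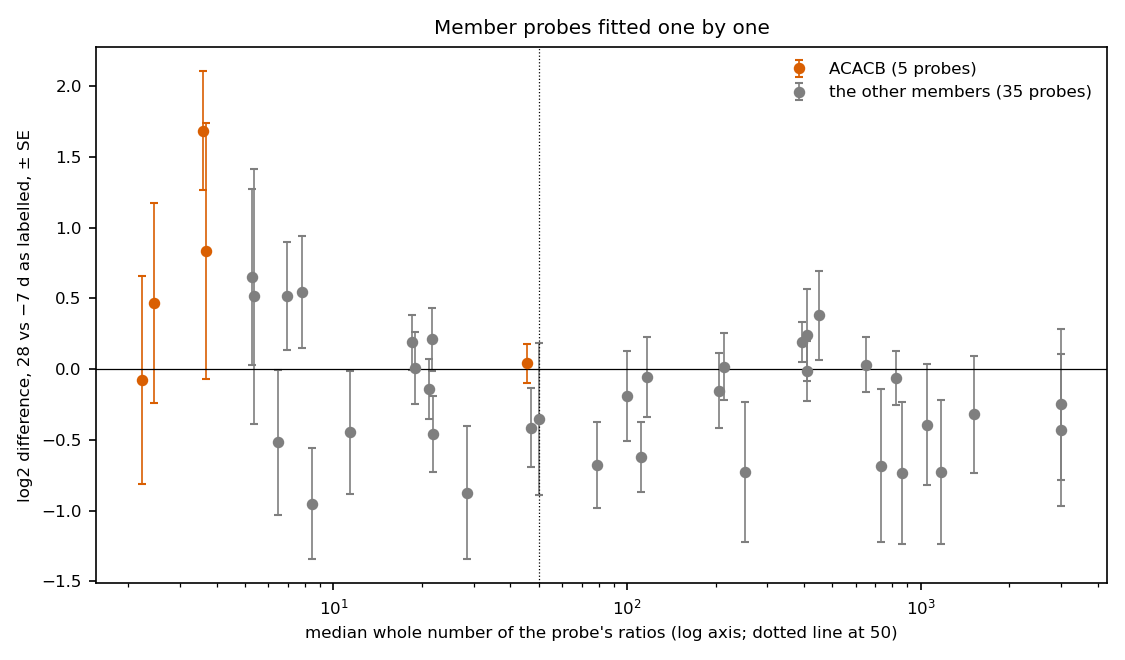
Log2 difference of 28 vs −7 d, as labelled, with SE (y axis) of each of the 40 member probes tested, against the median whole number of its ratios, a lower bound of the signal (x axis, log scale). The ACACB probe at 1.69 has a median of 3.6, and the ACACB probe at 45.6 lies at 0.04.

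No other member was called between days. DGAT1 was −0.64 at 7 vs −7 d (SE 0.30, 95% interval −1.25 to −0.04), where 1.49% of all genes were called. With the mean of a pair's arrays removed, its pairs gave −1.41 in B4F75, 0.01 in B4F125, −0.47 in B5F75 and −0.70 in B5F125 cows. The bright probe of DGAT1 alone was called (−0.71, SE 0.23, where 1.37% of such genes were called). ACLY was 0.50 at 28 vs 7 d (SE 0.25, where 1.86% of all genes were called). With the pair means removed it was above 0 in 4 of 4 pairs. Without that removal its Cy5/Cy3 ratios (gene mean removed) were 0.95 in B4F75 and −0.06 in B4F125 cows, with 28 d in Cy5. With 7 d in Cy5 they were −0.18 in B5F75 and 0.28 in B5F125 cows, so the pairs then did not share a sign. These ratios also hold the difference between the 2 cows of a pair, so their signs are not those of the day alone. FASN lay within −0.35 and 0.09 in the 3 comparisons of days, with intervals of up to −0.94 and 0.67. Among related genes, ELOVL5, the elongase of polyunsaturated fatty acids, was called at −1.16 (SE 0.30) at 7 vs −7 d and 0.89 (SE 0.30) at 28 vs 7 d, and GK (glycerol kinase) at −1.25 (SE 0.37) at 7 vs −7 d. Of 5 erythroid markers, HBB was called at 1.82 (SE 0.48) at 7 vs −7 d, and HBB (1.80, SE 0.48), HBM (1.13, SE 0.32) and HBA (0.61, SE 0.22) at 28 vs −7 d. Their part in the day values of the members was not tested.

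Of all genes tested, 12.7% were called in at least 1 of the 27 comparisons. In the wider pathway the called ones were PGD of 6 genes of acetyl-CoA and NADPH supply, ELOVL5 and ELOVL2 of 14 of elongation and desaturation, INSIG1 and THRSP of 20 regulators, GK and MOGAT1 of 21 of acyl-CoA and glycerolipid synthesis, and 0 of 16 of lipid droplets and lipases. ELOVL5 was also lower in BCS5 than in BCS4 cows at 28 d (−0.94, SE 0.26, adjusted p = 0.999, and −1.02 without the 12 arrays, also called), and INSIG1 higher in BCS5 cows at 7 d (0.81, SE 0.27, adjusted p = 0.749). MOGAT1 (monoacylglycerol acyltransferase) was higher in F125 than in F75 cows at −7 d (0.63, SE 0.19, adjusted p = 0.661). Without the 12 arrays the differences of INSIG1 (0.71, SE 0.28) and MOGAT1 (0.57, SE 0.20) were not called. INSIG1 was also called in the interaction at −7 d (1.59, SE 0.55), where 0.427% of all genes were. In BCS5 cows the change of the feeding response from −7 to 7 d was called for INSIG1 (−1.40, SE 0.47) and MOGAT1 (−0.91, SE 0.33), where 1.23% of all genes were. For the interaction and these changes, values without the 12 arrays are not given. ELOVL2 had no bright probe. In lipid droplets and lipases the median difference lay near 0 in BCS5 vs BCS4 cows over the days (−0.09), against 0.04 for the members and 0.00 for all genes.

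The members fell into a set that varied together and others that did not. Over the 48 arrays the log2 ratio of FASN correlated at 0.71 with ACLY, 0.69 with SCD, 0.54 with ELOVL6 and 0.53 with ACACA, and with bright probes only at 0.78, 0.79 and 0.72 for the first 3. SREBF1 (0.34) and GPAM (0.32) were less like FASN, and DGAT1 (0.09), ACACB (−0.06) and DGAT2 (−0.14) lay near the median of 10800 genes measured on all arrays (0.01). The genes most like FASN included HMGCS1 (0.84), DHCR7 (0.82) and NSDHL (0.73), which are enzymes of cholesterol synthesis, and ACLY. Arrays share cows, dyes and hybridisations, so these correlations are descriptions and carry no p-value. ACLY and ELOVL6 correlated at 0.61 and ELOVL6 and SREBF1 at −0.07.

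**Figure D5:**
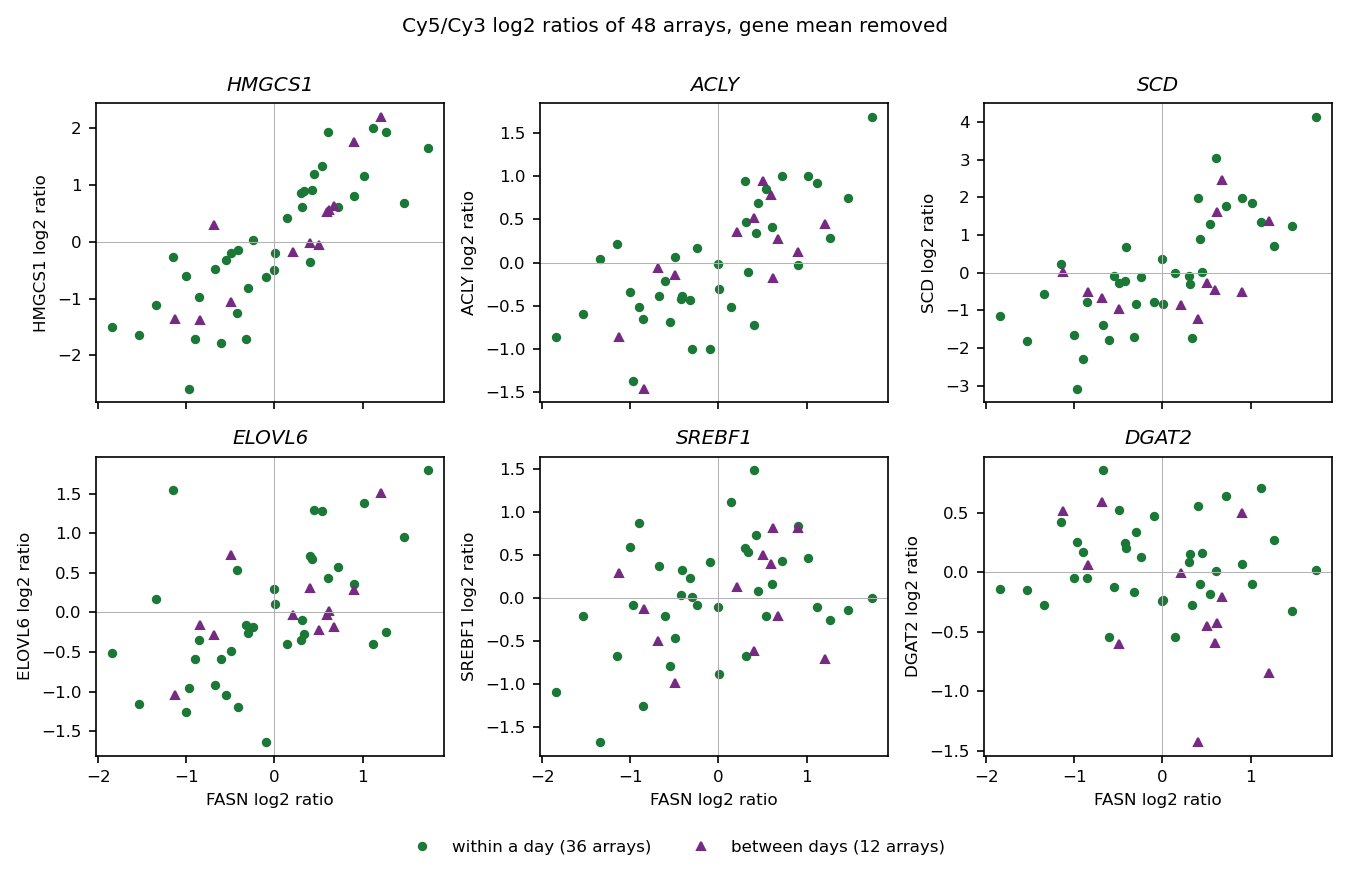
Cy5/Cy3 log2 ratio of FASN (x axis) against that of HMGCS1, ACLY, SCD, ELOVL6, SREBF1 and DGAT2 (y axes) on 48 arrays, gene means removed, with circles for the 36 arrays within a day and triangles for the 12 between days. Of the 6 genes plotted, HMGCS1 has the highest correlation with FASN (0.84) and DGAT2 the lowest (−0.14).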

How the data were processed

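Liver RNA of 32 cows was compared on 48 two-colour Agilent bovine arrays. The authors scanned the slides, left out poor spots and deposited a log2 ratio for every other spot of each array. Array medians lay between 0 and 0.521, so these values are not centred, and lowess could not be repeated without intensities. Gene names came from the annotated table, joined by spot number. Its 48 value columns, named by slide, were not used. Written names lack the digit 0, and 465 were restored through RefSeq symbols while 326 were left out. All 10 members matched RefSeq symbols.

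Each array was centred on its median and the probes of a gene averaged. In R 4.3.3 with limma 3.58.1 and statmod 1.5.0 each ratio was modelled as the difference of 2 group means and a term for dye, and cow pairs entered as random blocks (correlation 0.13). Calls needed p of at most 0.01 and FC of at least 1.5, and p-values were adjusted over all genes tested. The fit was tested on simulated data. Figures were drawn with matplotlib 3.10.9.

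Named were all members, up to 4 called genes of each other list and the 5 genes most like FASN, of which 1 is not reported here. HP, IGFBP2 and IGF1 were added after their values were seen. The members and lists were chosen with earlier results of these data known. Alternatives were values as deposited, scaled arrays, single probes, other minimums of arrays, no block, a fixed block, no dye term, array weights, 1 day's arrays alone, adjusted p, an exact sign-flip test, limma's own contrast errors and each cow pair left out. Chosen after seeing the data were bright probes only, the brightest probe, leaving out 2 arrays with few blanks, the 12 between days or 1 ACACB probe, and turning the 12 between days by exchanging the group labels of their channels.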

Additional observations from a re-analysis of the deposited data

Results flagged for a closer look

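The change of the ELOVL6 feeding response in BCS4 cows was called at both later days, −1.42 from −7 to 7 d and −1.20 from −7 to 28 d, by the test of the difference between the days.

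Of 50 sets of cow pair values, 1 held a pair far from the others, where chance gives about 1 in 20. These day values have the mean of each pair's 3 arrays removed. For FASN at 28 vs 7 d, the B5F75 pair lay at −0.21, against 0.16 for the nearest and 0.20 for the highest of the other 3. Without that removal the Cy5/Cy3 ratios (gene mean removed) were 0.50 in B4F75 and −0.69 in B4F125 cows, with 28 d in Cy5. With 7 d in Cy5 they were 0.62 in B5F75 and 0.67 in B5F125 cows, so the B5F75 pair did not stand apart there.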

How the results depend on the processing

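The 5 called results and SCD in BCS4 cows at 28 d kept their sign under the alternatives run, except that ACACB at 28 vs −7 d was −0.70 with the 12 arrays between days turned, a setting that turns the sign of each day comparison by its construction, and that 1 of its 5 tested probes gave −0.08. Small values without a call did change sign, among them SCD in BCS5 cows at 28 d (−0.13, up to 0.25), ACACB (0.04, down to −0.12) and DGAT2 (0.12, down to −0.002) in BCS4 cows at 28 d, and FASN at 28 vs 7 d (0.09, down to −0.12) and 28 vs −7 d (−0.27, up to 0.10). Counts of called members moved as follows. Day comparisons had 1 and gave 0 with values as deposited, with scaled arrays, with adjusted p and without 1 ACACB probe, 2 with the brightest probe or single probes, and 0 to 1 with a cow pair left out. Feeding within a BCS class at each day had 1 and gave 2 with array weights, with bright probes or without the 12 arrays between days, 3 with the 12 arrays of that day alone, with the brightest probe, with single probes or with the arrays between days turned, 0 with adjusted p, and 0 to 3 with a pair left out. Feeding within a BCS class over the days had 1 and gave 0 with values as deposited, array weights, adjusted p or without the 12 arrays, and 0 to 1 with a pair left out. F125 vs F75 at each day had 0 and gave 2 with array weights or with those arrays turned, 1 with the 12 arrays of that day alone, bright probes, the brightest probe, single probes, without the 2 arrays with few blanks or without the 12 arrays, and 0 to 2 with a pair left out. The change of the feeding response had 2 and gave 6 with array weights, 4 with bright probes or without the 12 arrays, 1 with no block, 0 with adjusted p, and 1 to 4 with a pair left out. F125 vs F75 over the days and the interaction at each day had 0 and gave 0 to 1 with a pair left out, and the BCS comparisons and the interaction over the days stayed at 0. The causes were not tested.

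ACACB at 28 vs −7 d ran from 0.04 with its brightest probe to 1.04 with a pair left out, other than when turned. FASN in BCS4 cows at 28 d missed the threshold with scaled arrays (−0.94, SE 0.35), the ELOVL6 change to 28 d with no block (−1.20, SE 0.45), and both ELOVL6 changes with the arrays between days turned (−0.86 and −1.03). Cow pair as a fixed block left both ELOVL6 changes called (−1.42 and −1.20, SE 0.30 each).

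Limits: intensities were not used, 2 pairs per BCS class held both feeding levels, and the direction of the day comparisons is not settled. The signs of the feeding and BCS differences rest on Cy5 as the numerator, which no source used here states.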
